A study of Sus scrofa with 16 samples.

Results

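The respiratory chain genes of the mitochondrial genome were described in the liver of pigs fed 3 different fats. They were the 10 genes ND1, ND2, ND3, ND4, ND5, CYTB, COX1, COX2, COX3 and ATP6, taken by their annotated symbol and their place on the mitochondrial genome, out of 25880 genes counted in every library. In the order just given their identifiers were ENSSSCG00000018065, ENSSSCG00000018069, ENSSSCG00000018084, ENSSSCG00000018087, ENSSSCG00000018091, ENSSSCG00000018094, ENSSSCG00000018075, ENSSSCG00000018078, ENSSSCG00000018082 and ENSSSCG00000018081. Of the 25880 genes, 14857 had a symbol in the tables used. The mitochondrial genome holds 13 protein genes, and the other 3 (ATP8, ND4L and ND6) were followed beside the 10.

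The study asked how the type of fat in a diet of similar energy and protein content affects liver expression. Crossbred pigs, from Polish Landrace x Polish Large White sows and Duroc x Pietrain boars, were kept in individual pens from about 60 to 118 kg of body weight. The diets contained rapeseed oil (5 pigs, 3 gilts and 2 barrows), beef tallow (5 pigs, 2 gilts and 3 barrows) or coconut oil (6 pigs, 3 gilts and 3 barrows). Liver RNA was read from the 3′ end of polyadenylated transcripts, 1 library a pig. No diet without added fat was among the groups, so that each diet was compared only with the other 2. The libraries held 705669 to 1767671 reads on genes, with a median of 1018322. The p-values below refer to the spread between these pigs.

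The listed tissue was checked against markers. The 10 hepatocyte markers summed to 164031 ± 20715 CPM (reads scaled to a common library total, with TMM normalization; SD, n = 5) with rapeseed oil, 144998 ± 39651 (n = 5) with beef tallow and 163494 ± 28158 (n = 6) with coconut oil. Albumin, the main plasma protein made by hepatocytes, was the most abundant with a mean of 87250 CPM, and of the 10 genes SERPINA1 had a median count of 0. The lowest sum was 87577 CPM, in beef tallow 3. Adipocyte markers summed to 4.13 to 23.1 CPM in the 16 pigs, with LEP at 0 in every pig and PLIN1 at a median count of 0.

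The mitochondrial genome is a small circle that is copied and transcribed inside the organelle. Long precursors are made from each strand and are cut into separate messenger, ribosomal and transfer RNAs, so that messengers of 1 precursor can still differ in level through processing and decay. Its proteins are core subunits of the complexes that pass electrons to oxygen and make ATP, a supply on which the hepatocyte draws for urea, glucose and lipid synthesis, and all other subunits come from nuclear genes.

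The share of reads is given as percent of the reads counted on genes. With rapeseed oil the share was 4.81, 4.85, 5.17, 5.16 and 4.41% in pigs 1 to 5. With beef tallow it was 5.50, 4.35, 4.57, 4.36 and 4.87%. With coconut oil the lowest share was 3.37%, the median 5.12% and the highest 6.77%. The 3 diets overlapped, and both the lowest pig (coconut oil 4) and the highest (coconut oil 2) had been fed coconut oil. Counting error was small beside this spread, with 95% Wilson intervals of 3.33 to 3.40% in the lowest pig and 6.72 to 6.81% in the highest, which cover counting error only. The mean share was 4.88% ± 0.310 (SD, n = 5) with rapeseed oil, 4.73% ± 0.478 (n = 5) with beef tallow and 5.13% ± 1.14 (n = 6) with coconut oil. The differences between these means hung on single pigs. On leaving out 1 pig, coconut oil minus rapeseed oil (0.243 percentage points) ran from −0.0855 (without coconut oil 2), a turned direction, to 0.595 (without coconut oil 4). Coconut oil minus beef tallow (0.398) ran from 0.0689 to 0.750 without the same 2 pigs, and beef tallow minus rapeseed oil (−0.154) from −0.347 (without beef tallow 1) to −0.0598 (without beef tallow 2). The share is a sum over genes chosen with results known, and its difference between diets was not tested. In whole tissue, fewer cells rich in mitochondria and less mitochondrial RNA per cell cannot be told apart.

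**Figure D1:**
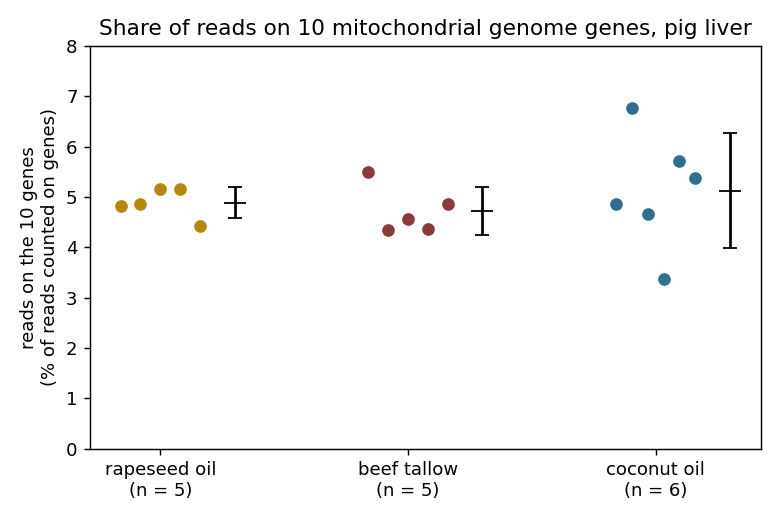
Share of reads on the 10 genes, as percent of reads counted on genes (vertical axis), for each pig (points) by diet, with the mean and SD of each diet (bar and whiskers beside the points). The 6 coconut oil pigs ran from 3.37 to 6.77% and enclosed the pigs of both other diets.

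Levels differed widely among the 10 genes. ATP6 held 32.0% ± 2.49 (SD, n = 16) of their reads and COX3 22.1% ± 2.73, and these were the sixth and the eighth most abundant of all genes counted. CYTB followed with 9.10% ± 1.04, and ND5 had the smallest part with 1.56% ± 0.177. Per kb of gene length the order of mean levels was ATP6, COX3, ND3, CYTB, ND2, COX2, ND4, ND1, COX1 and ND5. ATP6 lay above COX3, COX3 above ND3, and COX1 above ND5 in 16 of 16 pigs on this scale, and ND2 above COX2 in 15 of 16. The neighbours ND3 and CYTB, and CYTB and ND2, were in that order in 9 of 16 pigs, so that their levels per kb did not differ beyond the spread between pigs. COX2 above ND4, ND4 above ND1, and ND1 above COX1 each held in 11 of 16 pigs. Since reads of this assay start near the 3′ end, a level per kb divides by a length that the reads do not cover, and it is given as a common scale only. A read past the annotated end of a gene is not counted on that gene, so that the order is one of counted reads.

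Complex I takes electrons from NADH, and 5 of the 10 genes encode its membrane subunits. ND1 (positions 3922 to 4876 of the mitochondrial sequence in Sscrofa11.1) had 2627, 2258, 2505, 2468 and 2609 CPM in the rapeseed oil pigs. In the beef tallow pigs it had 2937, 2355, 2170, 2330 and 2617 CPM. With coconut oil its lowest, median and highest levels were 1753, 2919 and 3662 CPM. The coconut oil pigs enclosed the others, as for the share of reads. ND2 (5087 to 6128) averaged 3656 ± 418 CPM (SD, n = 5) with rapeseed oil, 3964 ± 892 (n = 5) with beef tallow and 4484 ± 1279 (n = 6) with coconut oil. Its log2 fold change for coconut oil against rapeseed oil was 0.29 (SE 0.19, edgeR adjusted p = 0.548), and 0.18 with the replicate block. ND3 (10653 to 10998) ranged from 843 to 2080 CPM over the 16 pigs, ND4 (11359 to 12736) from 2413 to 5108 CPM and ND5 (12935 to 14755) from 463 to 1187 CPM. For each of the 5 genes the lowest pig was coconut oil 4 and the highest coconut oil 2.

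Complex III is represented by CYTB (15342 to 16481), cytochrome b, which carries electrons from ubiquinol toward cytochrome c. Its level was 4625, 4196, 4694, 4763 and 3753 CPM with rapeseed oil. With beef tallow it was 5517, 4373, 4767, 5025 and 4431 CPM. With coconut oil it ran from 2677 through a median of 4115 to 5703 CPM. The diets overlapped, and the log2 fold change for coconut oil against beef tallow was −0.19 (SE 0.18, edgeR adjusted p = 0.714), with −0.29 to −0.086 (without coconut oil 4) on leaving out 1 pig.

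Complex IV reduces oxygen, and COX1, COX2 and COX3 form its catalytic core. COX1 (6511 to 8055), the subunit that holds the oxygen reduction site, had 1480, 3839, 4727, 4285 and 1252 CPM with rapeseed oil. With beef tallow it had 5623, 2330, 2287, 1226 and 1927 CPM. With coconut oil the lowest, median and highest levels were 2127, 4327 and 5295 CPM. The spread within diets was wide, since pigs 1 and 5 of rapeseed oil lay far below the other 3, and pig 1 of beef tallow far above the other 4. The coefficient of variation of COX1 over the 16 pigs was 45.4%, against 15.9 to 31.6% for the other 9 genes. Of 161 other genes with a mean CPM at least that of ND5, 146 varied less than COX1, while 27 varied less than CYTB and 122 less than COX2. The log2 fold change of COX1 was 0.62 for coconut oil against beef tallow (SE 0.32, 95% interval −0.06 to 1.30, edgeR adjusted p = 0.474). It was 0.40 for coconut oil against rapeseed oil (SE 0.31, adjusted p = 0.640) and −0.22 for beef tallow against rapeseed oil (SE 0.40, adjusted p = 0.846), both in edgeR. Single pigs moved these values, which on leaving out 1 pig ran from −0.68 (without beef tallow 1) to −0.0096 (without rapeseed oil 3) for beef tallow against rapeseed oil, from 0.19 (without rapeseed oil 5) to 0.60 (without rapeseed oil 3) for coconut oil against rapeseed oil, and from 0.44 (without beef tallow 4) to 1.09 (without beef tallow 1) for coconut oil against beef tallow. None of them passed the threshold.

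COX2 (8203 to 8890), which receives electrons from cytochrome c, had 1949, 2047, 2393, 2026 and 2116 CPM with rapeseed oil. With beef tallow it had 2484, 1679, 1082, 1793 and 1788 CPM, and with coconut oil 1210, 2591 and 3858 CPM as lowest, median and highest. Beef tallow pigs 2 to 5 lay below every rapeseed oil pig, and pig 1 above them. The log2 fold change was −0.26 for beef tallow against rapeseed oil (SE 0.19, edgeR adjusted p = 0.565) and 0.49 for coconut oil against beef tallow (SE 0.26, 95% interval −0.06 to 1.05, edgeR adjusted p = 0.483). On leaving out 1 pig the former ran from −0.41 (without beef tallow 1) to −0.13 (without beef tallow 3) and the latter from 0.33 (without coconut oil 2) to 0.65 (without beef tallow 1), none past the threshold. COX3 (9800 to 10583) averaged 10985 ± 1713 CPM (SD, n = 5) with rapeseed oil, 11260 ± 1177 (n = 5) with beef tallow and 10349 ± 2264 (n = 6) with coconut oil.

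Complex V makes ATP, and ATP6 (9120 to 9800) encodes the subunit of its proton channel. ATP6 had 19201, 16663, 16294, 16350 and 14369 CPM with rapeseed oil. With beef tallow it had 16998, 13420, 11923, 13824 and 13755 CPM, and with coconut oil 10916, 16001 and 22106 CPM as lowest, median and highest. Beef tallow pigs 2 to 5 lay below all 5 rapeseed oil pigs. The log2 fold change for beef tallow against rapeseed oil was −0.25 (SE 0.16, 95% interval −0.59 to 0.10, edgeR adjusted p = 0.499). ATP6 and COX3 share 1 base and ATP8 and ATP6 share 43, so that reads in the shared bases could be given to neither gene by the counting.

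No member passed the threshold of an adjusted p under 0.05 (edgeR, Benjamini-Hochberg over all genes tested) between any 2 diets. For beef tallow against rapeseed oil it was 0 of 10, where 70 of 6318 genes passed (1.11%). For coconut oil against rapeseed oil it was 0 of 10, where 9 of 6528 passed (0.138%), and for coconut oil against beef tallow 0 of 10, where 4 of 6812 passed (0.0587%). With so few calls among all genes, a count of 0 among 10 members lies near the background. At an unadjusted p under 0.05 the edgeR count was also 0 of 10 in each of the 3 comparisons, where 947 of 6318, 847 of 6528 and 780 of 6812 genes passed in the same order. DESeq2 called 0 of 10 in each, where it called 186 of 6032, 90 of 3414 and 46 of 3450 genes. The median log2 fold change of the 10 members was 0.00 for beef tallow against rapeseed oil (0.01 over all genes), 0.07 for coconut oil against rapeseed oil (0.00 over all genes) and 0.15 for coconut oil against beef tallow (0.00 over all genes). Over the alternatives these medians ran from −0.05 (without beef tallow 1) to 0.03 (without beef tallow 2), from −0.02 (without coconut oil 2) to 0.17 (without coconut oil 4), and from 0.04 (replicate block) to 0.26 (without coconut oil 4), so that in the first 2 pairs they lay on both sides of 0. The 3 comparisons share pigs. The levels of a pair of diets lay wholly apart for 0 of 10 members in each comparison, where they did for 290 of 6318, 98 of 6528 and 93 of 6812 genes. These tests do not show that levels were equal, since the 95% intervals reached 1.30 for COX1.

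**Figure D2:**
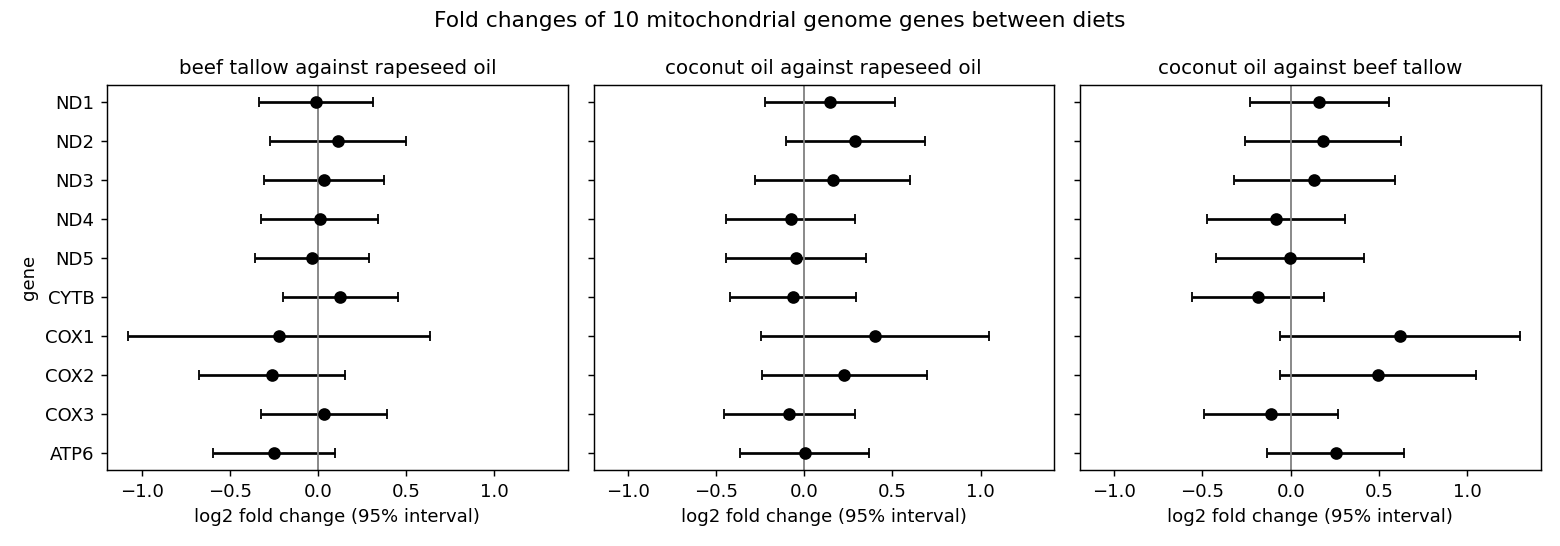
Log2 fold change (horizontal axis; points, edgeR) with its 95% interval (whiskers) of the 10 genes (vertical axis, ordered by complex) in each pair of diets; positive values are higher in the diet named first. Every interval includes 0, and those of COX1 are the widest in each panel, such as −1.08 to 0.64 for beef tallow against rapeseed oil.

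Ratios between genes need no library size, and 3 were tested with an exact two-sided permutation test of the mean log2 ratio, adjusted over the 9 tests. The ratio of CYTB to ND1 sets the last against the first protein gene of the heavy-strand precursor. It was 1.76, 1.86, 1.87, 1.93 and 1.44 with rapeseed oil, and 1.88, 1.86, 2.20, 2.16 and 1.69 with beef tallow. With coconut oil it was 1.21, 1.54 and 1.96 as lowest, median and highest, and 5 of the 6 pigs lay below every beef tallow pig. The mean log2 ratio differed by −0.34 for coconut oil against beef tallow (SE 0.11, exact p = 0.0195, adjusted p = 0.0877), a fold of 0.790 that did not pass the threshold after adjustment. On leaving out each of the 11 pigs in turn the difference ran from −0.27 (without coconut oil 5, exact adjusted p = 0.143) to −0.41 (without coconut oil 3, exact adjusted p = 0.0487). The latter was the only one of the 11 past the threshold, and it leaves out the coconut oil pig with the highest ratio. The other differences were 0.14 for beef tallow against rapeseed oil (exact adjusted p = 0.386), with 0.07 (without rapeseed oil 5) to 0.19 (without beef tallow 5) on leaving out 1 pig, and −0.20 for coconut oil against rapeseed oil (exact adjusted p = 0.321), with −0.27 (without rapeseed oil 5) to −0.13 (without coconut oil 5).

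The ratio of COX3 to ATP6 sets neighbours with no transfer RNA between them. It was 0.532, 0.690, 0.677, 0.821 and 0.610 with rapeseed oil, and 0.727, 0.757, 1.03, 0.837 and 0.718 with beef tallow. With coconut oil it was 0.546, 0.622 and 0.759 as lowest, median and highest, and 5 of the 6 pigs lay below every beef tallow pig. The difference of the mean log2 ratio was −0.37 for coconut oil against beef tallow (SE 0.12, exact p = 0.0108, adjusted p = 0.0877), a fold of 0.774 that also missed the threshold after adjustment. It was 0.29 for beef tallow against rapeseed oil (exact adjusted p = 0.238) and −0.08 for coconut oil against rapeseed oil (exact adjusted p = 0.592), which ran from −0.15 (without rapeseed oil 1) to 0.0017 (without rapeseed oil 4) on leaving out 1 pig. Both differences with beef tallow include beef tallow 3, whose ratio of 1.03 was the highest of all pigs, against 0.718 to 0.837 in the other beef tallow pigs. In that pig 33.2% of tallied reads aligned to several places.

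The ratio of COX2 to COX1 compares subunits of the same complex and varied most. It was 1.32, 0.533, 0.506, 0.473 and 1.69 with rapeseed oil, and 0.442, 0.721, 0.473, 1.46 and 0.928 with beef tallow. With coconut oil it was 0.466, 0.575 and 0.771 as lowest, median and highest. The diets overlapped, and the adjusted p of the exact test was 0.833 for beef tallow against rapeseed oil and 0.454 for each comparison with coconut oil. On leaving out 1 pig the difference of the mean log2 ratio ran from −0.35 (without beef tallow 4) to 0.18 (without rapeseed oil 5) for beef tallow against rapeseed oil (−0.10 with all pigs). For coconut oil it ran from −0.59 (without rapeseed oil 4) to −0.13 (without rapeseed oil 5) against rapeseed oil (−0.41 with all pigs), and from −0.50 (without beef tallow 1) to −0.06 (without beef tallow 4) against beef tallow (−0.32 with all pigs). The smallest exact p that these designs allow is 0.00794 for 5 against 5 pigs and 0.00216 for 5 against 6.

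**Figure D3:**
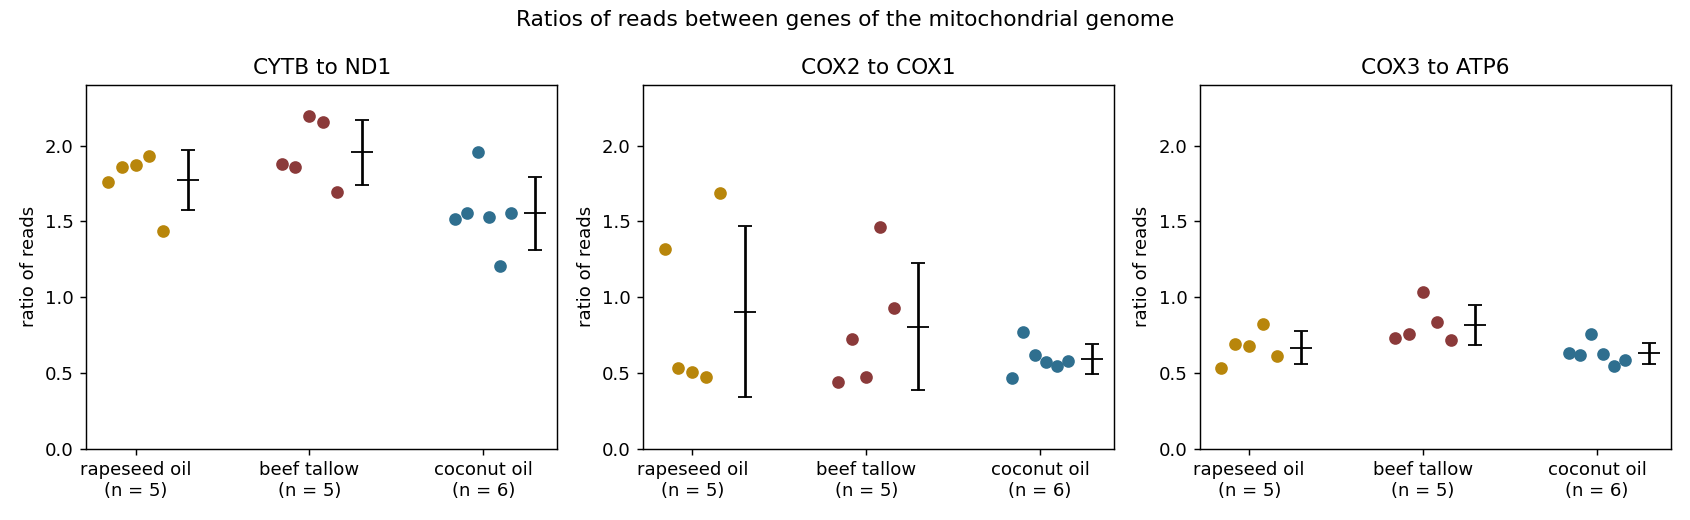
Ratio of reads (vertical axis) of CYTB to ND1, COX2 to COX1 and COX3 to ATP6 for each pig (points) by diet, with the mean and SD of each diet (bar and whiskers). For CYTB to ND1 and for COX3 to ATP6, 5 of 6 coconut oil pigs lie below the 5 beef tallow pigs, and COX2 to COX1 ranges from 0.442 to 1.69.

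The ratios were set against the tallies of the counting, a check chosen after seeing the data. In the 16 pigs 15.4 to 38.1% of tallied reads aligned to several places and were counted on no gene. The log2 ratio of COX3 to ATP6 had a Pearson r of 0.575 with that share (permutation p = 0.0203) and a Spearman rho of 0.518 (permutation p = 0.0420), with adjusted p-values of 0.154 and 0.168 over 12 relations (3 ratios with 4 tallies). For CYTB to ND1 the Pearson r was 0.554 (permutation p = 0.0257, adjusted 0.154) and the Spearman rho 0.612 (permutation p = 0.0132, adjusted 0.0949). Without coconut oil 3 and beef tallow 3, the pigs farthest from the median share, r was 0.415 for both ratios. With the mean of each diet removed, r was 0.777 for COX3 to ATP6 and 0.644 for CYTB to ND1. The share of reads on no gene was set against the same ratios. With the mean of each diet removed, its r was −0.727 for COX3 to ATP6 and −0.779 for CYTB to ND1. Over the 16 pigs its Pearson r was −0.344 for COX3 to ATP6 (permutation p = 0.194, adjusted 0.373) and −0.486 for CYTB to ND1 (permutation p = 0.0567, adjusted 0.227), with Spearman rho of −0.303 (permutation p = 0.255, adjusted 0.437) and −0.600 (permutation p = 0.0158, adjusted 0.0949). Without beef tallow 5 and beef tallow 3, the pigs farthest from the median of that share, r was −0.269 and −0.468. Over the 16 pigs none of the 12 relations passed the threshold after adjustment. The r values with the mean of each diet removed, which were farther from 0 for these ratios, were not tested. The part of these reads in the ratios was not tested either. Nuclear genomes of mammals hold copies of mitochondrial DNA, and mitochondrial reads that also aligned to such a copy would be among those counted on no gene. How many there were was not tested, which leaves the shares, levels and ratios uncertain by that part.

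Over all 45 pairs of members, the SD of the log2 ratio over the 16 pigs ranged from 0.14 (COX3 to CYTB) to 0.75 (COX1 to ND4), with a median of 0.27. COX3 to CYTB ran from 2.04 to 2.84, and its median counting error was 0.02 on the log2 scale. The 36 pairs without COX1 had SDs of 0.14 to 0.41, and the 9 pairs with COX1 had SDs of 0.63 to 0.75. COX1 thus varied in ratio to each of the other 9 genes by more than any pair of those 9 varied.

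The other 3 protein genes of the mitochondrial genome were also below the threshold in every pair of diets. ATP8, the short neighbour of ATP6, had a mean of 245 CPM ± 80.5 (SD, n = 16) and ND4L 64.2 CPM ± 19.4. ATP8 shares 43 bases with ATP6, and ND4L shares 7 with ND4. Since reads start near the 3′ end, an RNA that holds both genes of such a pair would be counted mostly on the second gene. The levels of ATP8 and ND4L are thus counts of reads and were not taken as the abundance of their transcripts. ND6, a complex I subunit and the protein gene of the other strand, had 3168, 2152, 2597, 2483 and 2889 CPM with rapeseed oil, and 3286, 2543, 672, 2323 and 2127 CPM with beef tallow. Its lowest level, in beef tallow 3, was 6.79-fold below its highest, in coconut oil 2. ND6 shares 17 bases with ND5 and runs against it, and the strand setting of the counting is not given in the sources used here, so that reads of ND6 and of the antisense RNA cannot be told apart. The antisense RNA lies on the strand of ND5, and reads of an ND5 transcript that ran past its annotated end would not be counted on ND5. How many there were was not tested, which leaves the low level of ND5 uncertain.

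Between barrows and gilts, 0 of 10 members passed the threshold (edgeR), where 5 of 6365 genes did (0.0786%). At an unadjusted p under 0.05 the count was 0 of 10, where 256 of 6365 genes (4.02%) passed, and DESeq2 called 0 of 10 members and 11 of 15841 genes. The share of reads was 5.02% ± 0.405 (SD, n = 8) in gilts and 4.83% ± 0.997 (n = 8) in barrows. On leaving out 1 pig, an alternative added after seeing the data, barrows minus gilts (−0.181 percentage points) ran from −0.457 (without coconut oil 2) to 0.0288 (without coconut oil 4), a turned direction. COX1 averaged 3841 CPM in gilts and 2863 CPM in barrows, with a log2 fold change of −0.43 (SE 0.30, edgeR adjusted p = 0.998).

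Nuclear genes of the same complexes were taken from lists. Of 79 listed subunits of complexes I to V, 60 were matched by symbol and 56 tested, and 0 passed the threshold in edgeR between any 2 diets, with 3, 8 and 10 of 56 at an unadjusted p under 0.05 for beef tallow against rapeseed oil, coconut oil against rapeseed oil and coconut oil against beef tallow, where 947 of 6318, 847 of 6528 and 780 of 6812 of all genes passed. Their median log2 fold changes were −0.08, 0.08 and 0.15 in that order. Their summed level had a coefficient of variation of 9.89% over the 16 pigs, and that of the 10 mitochondrial genes 16.4%. The most abundant subunits were NDUFC2 of complex I, SDHC of complex II, UQCR11 of complex III, COX7C of complex IV and ATP5PB of complex V. COX7C had the smallest unadjusted p of these 5, with a log2 fold change of 0.55 for coconut oil against beef tallow (SE 0.18, edgeR adjusted p = 0.292). DESeq2 calls of the nuclear subunits are not given here. The paper, which used DESeq2, names the complex II subunit SDHD among genes lower with coconut oil than with rapeseed oil. In edgeR the 4 complex II subunits had log2 fold changes from −0.75 to 0.14 in that comparison. Of these, 1 had an unadjusted p under 0.05, and the smallest edgeR adjusted p was 0.125.

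Genes that act on mitochondrial genes or mark the organelle were listed too, and are given for beef tallow against rapeseed oil, coconut oil against rapeseed oil and coconut oil against beef tallow in that order. Over all genes 70 of 6318, 9 of 6528 and 4 of 6812 passed the threshold in edgeR, and 947, 847 and 780 had an unadjusted p under 0.05. Of 35 factors that transcribe, process or copy the mitochondrial genome, 17, 18 and 18 were tested and 0 passed in each (1, 0 and 0 unadjusted), and LRPPRC, which stabilizes mitochondrial messengers, was the most abundant. Of 64 mitochondrial ribosome genes, led by MRPL55, 49, 51 and 52 were tested and 0 passed in each (2, 6 and 1 unadjusted), and of 8 regulators of mitochondrial biogenesis, led by YY1, 3 were tested and 0 passed in each (1, 1 and 0 unadjusted). Of 12 genes for mitochondrial mass, 9 were tested, and 1, 0 and 0 passed (2, 1 and 0 unadjusted). The 1 that passed, in beef tallow against rapeseed oil, was CYCS, cytochrome c, the electron carrier between complexes III and IV. CYCS had 81.7, 127, 71.3, 133 and 87.4 CPM with rapeseed oil and 235, 207, 275, 182 and 155 CPM with beef tallow. Every beef tallow pig lay above every rapeseed oil pig, and CYCS rose with a log2 fold change of 1.08 (SE 0.21, edgeR adjusted p = 0.0285). The call was lost in 7 of 18 alternatives added after seeing the data, with the replicate block (edgeR adjusted p = 0.0801) and without rapeseed oil 1 (0.0800), rapeseed oil 3 (0.0903), rapeseed oil 5 (0.0837), beef tallow 1 (0.0598), beef tallow 2 (0.0549) or beef tallow 4 (0.0591), while its log2 fold change stayed between 0.96 and 1.21 in all 18. In the 6 coconut oil pigs CYCS ran from 59.4 to 197 CPM. With coconut oil its log2 fold change was 0.60 against rapeseed oil (SE 0.23, edgeR adjusted p = 0.284). Against beef tallow it was −0.48 (SE 0.24, edgeR adjusted p = 0.447), and neither passed the threshold. CYCS has processed copies in mammalian genomes, which makes its count uncertain.

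The 5 nuclear genes whose level followed the members most closely were SCOC, SNX2, IRF2, VPS25 and TM2D2. Likeness was the root mean square difference of centred log2 CPM over the 16 pigs from the mean of the members, which was 0.19, 0.19, 0.20, 0.20 and 0.21 for these genes. It was 0.26 for a gene with no variation and had a median of 0.49 over 6809 genes, of which 60 were nearer than the flat gene.

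Other cell types were followed by marker sums, and their part in the levels above was not tested. Kupffer cell markers, 7 of 8 with a matched symbol and led by C1QA, averaged 901 CPM ± 226 (SD, n = 5) with rapeseed oil, 1097 ± 333 (n = 5) with beef tallow and 710 ± 116 (n = 6) with coconut oil, and were highest, at 1653 CPM, in beef tallow 3. Endothelial markers, 6 of 7 and led by CLEC4G, ranged from 295 to 483 CPM. Stellate and fibroblast markers, 6 of 6 and led by COL3A1, ranged from 272 to 813 CPM. Erythroid markers, 4 of 5 and led by HBB, ranged from 504 to 4718 CPM. They were highest in coconut oil 4 (4718 CPM, with a mitochondrial share of 3.37%), coconut oil 3 (4651 CPM, 4.67%), rapeseed oil 5 (4472 CPM, 4.41%) and coconut oil 5 (3657 CPM, 5.71%). Lymphocyte markers, 6 of 6 and led by CD2, ranged from 12.6 to 38.8 CPM with CD79A at a median count of 0, and cholangiocyte markers, 4 of 5 and led by SOX9, from 3.84 to 33.4 CPM with KRT7 at a median count of 0.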

How the data were processed

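Reads of 16 liver libraries (QuantSeq 3′ forward kit) were mapped with TopHat to Sus scrofa 11.1 and counted per gene with HTSeq by the authors, who deposited raw counts. The labels and the study's methods name different RNA kits. Rows that name no gene were left out, and reads with several alignments made up 15.4 to 38.1% of tallied reads. Symbols, positions and lengths came from RefSeq (Sscrofa11.1). Mitochondrial ribosomal and transfer RNA genes had no symbol there and stayed among the other genes. Each pair of diets was fitted on its own pigs in edgeR 4.0.16 (TMM, filterByExpr with a minimum count of 10, quasi-likelihood F test, Benjamini-Hochberg, threshold 0.05), after tests on simulated data, with DESeq2 1.42.0 as an alternative. Correlations used 100000 permutations, and profiles log2(CPM + 0.5). Named were the 10 members, other named mitochondrial genes, the top gene and called genes of each list, and the 5 nearest nuclear genes. Members and lists were chosen with earlier results of these data known.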

Additional observations from a re-analysis of the deposited data

Results flagged for a closer look

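In 51 groups of values (each of 13 mitochondrial genes, the share of reads and 3 ratios in each diet), 2 pigs lay far from the others of their diet. Chance gives about 1 such pig in 20 groups, and the groups are not independent. COX1 was at 5623 CPM in beef tallow 1, while the other 4 beef tallow pigs had 1226 to 2330 CPM. ATP8 was at 460 CPM in coconut oil 2, the pig with the highest share of mitochondrial reads, while the other 5 had 105 to 233 CPM. In a fit of diet by sex, 0 of 10 members had a diet effect that differed between gilts and barrows in any of the 3 pairs of diets (edgeR), and 0 genes of all tested did. At an unadjusted p under 0.05 the count was 0 of 10 in each pair, where 3.96, 3.98 and 3.52% of all genes passed. DESeq2 was not run for it.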

How the results depend on the processing

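In 78 alternatives over the 3 pairs of diets and the sexes, 0 of 10 members passed the threshold in each (DESeq2, RLE, nuclear library sizes, other filters, all 16 pigs in 1 fit, covariates, block, and leaving out each pig), and the smallest adjusted p of a member was 0.199, for COX1 in coconut oil against beef tallow without beef tallow 1 (edgeR). At an unadjusted p under 0.05 at most 2 members passed, in coconut oil against beef tallow without the filter, without beef tallow 1 or without coconut oil 4, where 9.05, 11.6 and 11.3% of all genes did. The difference in the share of reads between diets moved by less than 1 SD in all 38 alternatives, yet turned in coconut oil against rapeseed oil without coconut oil 2 (0.243 to −0.0855 percentage points). Counts of all genes past the threshold moved more. For beef tallow against rapeseed oil (70) they were 186 with DESeq2, 190 without the filter and 35 with the replicate block, and 9 to 149 on leaving out 1 pig, lowest without rapeseed oil 5 and highest without beef tallow 3. For coconut oil against rapeseed oil (9) they were 90 with DESeq2, 82 without the filter, 14 with at least 10 reads in every pig, and 3 (without rapeseed oil 3) to 27 (without coconut oil 3) on leaving out 1 pig. For coconut oil against beef tallow (4) they were 46 with DESeq2, 22 without the filter, 8 with all 16 pigs in 1 fit, and 4 to 9 (without beef tallow 2) on leaving out 1 pig. The causes were not tested.

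The labels link pigs of different diets only by a replicate number. Correlations of the deviations of same-numbered pigs from their diet means ran from −0.25 to 0.14, which does not show that no block was shared. The block gave 35, 7 and 4 genes for the 3 pairs in the order above, and for the 3 ratios in coconut oil against beef tallow differences of −0.34 (CYTB to ND1), −0.31 (COX2 to COX1) and −0.35 (COX3 to ATP6), where 5 pairs cannot give an exact p under 0.0625. Coconut oil 6 has no partner.

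Among the members, 523 of 560 alternative log2 fold changes kept their direction, and the 37 that turned lay near 0. ATP6 in coconut oil against rapeseed oil turned from 0.0016 to −0.0017 with at least 10 reads in every pig and −0.025 with the block, ND3 in coconut oil against beef tallow to −0.017 with the block, ND4 in beef tallow against rapeseed oil to −0.00013 with nuclear library sizes, and ND5 in coconut oil against beef tallow to 0.016 without the filter. On leaving out 1 pig, the lowest and highest values in beef tallow against rapeseed oil were −0.076 and 0.031 for ND1, −0.012 and 0.20 for ND2, −0.034 and 0.12 for COX3, −0.034 and 0.091 for ND3, −0.040 and 0.053 for ND4, and −0.077 and 0.0099 for ND5. In coconut oil against rapeseed oil they were −0.094 and 0.094 for ATP6, −0.18 and 0.0066 for COX3, −0.18 and 0.018 for ND4, −0.21 and 0.058 for ND5, and −0.16 and 0.035 for CYTB. In coconut oil against beef tallow they were −0.19 and 0.014 for ND4, and −0.17 and 0.10 for ND5.

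Of 114 alternatives for the ratios, 108 kept their direction and side of the threshold. On leaving out 1 pig, CYTB to ND1 in coconut oil against beef tallow ran from −0.41 (without coconut oil 3, past the threshold) to −0.27, COX2 to COX1 in beef tallow against rapeseed oil from −0.35 to 0.18 (without rapeseed oil 5), and COX3 to ATP6 in coconut oil against rapeseed oil from −0.15 to 0.0017 (without rapeseed oil 4). The lowest count of a member in a pig was 396.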
